A study of Mus musculus with 16 samples.

Results

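Lung tumors of a mouse model of small cell lung cancer were sorted by their RNA of Tph1, the gene of tryptophan hydroxylase 1, into 7 tumors that held much of it and 8 that held little. The split was made on the deposited FPKM values (fragments per kilobase of transcript, corrected for the size of the library): tumors were selected on this value alone, and one with at least 20 FPKM of Tph1 was taken as Tph1-high and any other as Tph1-low. These 15 tumors come from 16 in the series, each a bulk library with a mouse number of its own per the file header. The library of sgControl RPP tumor 1 was left out by the same rule. Over the tested genes its median was only 2.38 FPKM, while the other 15 libraries had medians of 10.0 to 12.4 FPKM. Tph1 stood at 2.58 FPKM in it.

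All mice carried the H11 LSL-Cas9 allele, a Cas9 transgene that Cre switches on, and were 2 to 4 months old when 400000000 particles of adenovirus were given into the trachea. The virus carried Cre under the CMV promoter, which is active in many cell types, so the cell of origin was not restricted. The letters RPP are not explained by the labels. From knowledge of the model they are read as sgRNAs that target Rb1, Rbl2 and Trp53, shared by both groups of the study. The study compared tumors labelled sgControl RPP with tumors labelled sgKdm5a RPP, the latter with an added sgRNA against the histone demethylase gene Kdm5a. Each tumor is called here by the label and tumor number of its title, and the Tph1 classes are not groups of the study. They were set from a measured RNA, so Tph1 itself is described and not tested.

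Tryptophan hydroxylase 1 adds a hydroxyl group to tryptophan, the rate-limiting step of serotonin synthesis outside the brain, and needs tetrahydrobiopterin and iron to do so. The product is decarboxylated to serotonin by the enzyme of Ddc, packed into secretory granules by the vesicular transporters of Slc18a1 and Slc18a2, taken back up by the transporter of Slc6a4 and broken down by that of Maoa. Outside the gut, Tph1 is known from pulmonary neuroendocrine cells, the rare airway cells that store serotonin and peptides, and from mast cells. Small cell lung cancer is a neuroendocrine carcinoma that shares many genes with the first of these.

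RefSeq (assembly GRCm38.p6) gives Tph1 a pair of start sites on the minus strand of chromosome 7, and both promoter windows are shown because the tumors were sorted on this gene. Each window runs from 250 bases before the start to 50 after it and is written from 5′ to 3′. The first lies at chr7:46672488-46672787 and the second at chr7:46667328-46667627. Capitals mark the homeodomain core TAATTA, which 5.29% of all 32851 windows of this length hold on either strand. The second window holds it, and the first holds none of the 5 motifs searched. These were the homeodomain core, the E-box CACGTG of MYC and TFE factors, another E-box, CAGCTG, the cyclic AMP response element TGACGTCA and the endoplasmic reticulum stress element, none of which is part of another.

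Tph1 start 1: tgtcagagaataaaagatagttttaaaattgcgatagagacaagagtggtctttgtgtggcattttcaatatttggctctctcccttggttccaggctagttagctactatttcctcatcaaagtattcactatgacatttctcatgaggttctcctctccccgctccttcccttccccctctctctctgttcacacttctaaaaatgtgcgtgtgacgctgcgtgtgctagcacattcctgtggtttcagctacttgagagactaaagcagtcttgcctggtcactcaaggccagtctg
Tph1 start 2: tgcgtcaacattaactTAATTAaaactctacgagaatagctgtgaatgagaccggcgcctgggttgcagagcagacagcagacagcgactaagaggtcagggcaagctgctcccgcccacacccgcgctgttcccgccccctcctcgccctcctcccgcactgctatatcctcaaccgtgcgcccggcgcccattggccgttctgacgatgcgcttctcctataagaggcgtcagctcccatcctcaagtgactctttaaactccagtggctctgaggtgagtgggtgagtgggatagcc

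Tph1 RNA spread over a wide range in both classes. Among Tph1-high tumors it was 142.9 FPKM in sgControl RPP tumor 8 and, in the same unit, 601.7, 29.9, 160.4, 42.2, 680.6 and 2024 in sgKdm5a RPP tumors 1, 3, 4, 6, 7 and 8. Among Tph1-low tumors it was 14.3, 2.24, 1.08, 1.64, 0.903 and 0.502 FPKM in sgControl RPP tumors 2 to 7, and 1.75 and 19.99 FPKM in sgKdm5a RPP tumors 2 and 5. The Tph1-high tumors thus differed among themselves by 67.7 times, and the highest tumor held 4028 times the lowest. The class boundary runs through the middle of this range and not through a gap. The value just below it is 19.99 FPKM in sgKdm5a RPP tumor 5, then 14.3 FPKM in sgControl RPP tumor 2, and just above it follow sgKdm5a RPP tumor 3 with 29.9 FPKM and sgKdm5a RPP tumor 6 with 42.2 FPKM. Once the libraries had been brought to 1 common median, sgKdm5a RPP tumor 5 stood at 21.04, on the other side of the threshold.

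**Figure D1:**
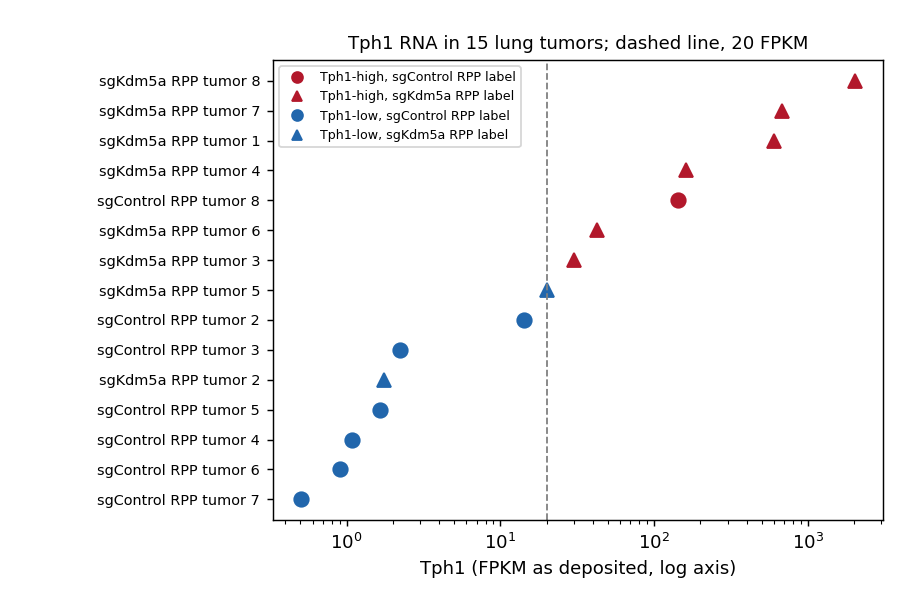
Tph1 RNA as deposited, in FPKM on a log axis, in each of the 15 tumors, ordered from the highest to the lowest. Colours give the Tph1 class, circles and triangles the sgRNA label, and the dashed line the threshold of 20 FPKM, with sgKdm5a RPP tumor 5 at 19.99 FPKM just under it and sgKdm5a RPP tumor 8 at 2024 FPKM on top.

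The classes were not spread evenly over the labels of the study. Of 8 sgKdm5a-labelled tumors 6 were Tph1-high (75.0%), and of 7 sgControl-labelled tumors 1 was (14.3%), a difference of 60.7 percentage points. Leaving out 1 tumor at a time gave differences of 57.1 to 75.0 points. These shares are a description, with no test, since the classes are the Tph1 values themselves. Kdm5a RNA ran against the labels, with 8.59 to 20.4 scaled FPKM in the sgKdm5a-labelled and 5.68 to 8.63 in the sgControl-labelled tumors. The labels are used here as names and as a covariate, and not as a statement of the Kdm5a level. Between the Tph1 classes, with the label in the model, Kdm5a differed by -0.17 on the log2 scale (adjusted p = 0.678, limma), and by 0.34 without the label. By mouse number, the series 190 to 238 held 4 Tph1-high and 6 Tph1-low tumors and the series 839 to 893 held 3 and 2. Because class and label overlap, the main limma comparisons below include the label as a covariate. Levels, medians, overlaps between classes and summed levels do not, so a difference between the labels can enter them. What belongs to the label and what to the class cannot be told apart fully.

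Other genes were compared between the classes on log2(scaled FPKM + 1), where scaled FPKM are the deposited values divided by the library's median over tested genes and multiplied by 11.8, the middle one of the 15 medians. The 13103 genes tested had 1 FPKM or more in 8 tumors or more. Of these genes, 110 were higher (0.84% of those tested) and 49 lower (0.374%) in Tph1-high tumors at an adjusted p under 0.05 (limma, Benjamini-Hochberg). Calls in either direction made up 1.21% of the genes tested, and the middle gene of all had a log2 difference of -0.03. Log2 differences ran from 0.61 to 4.81 among the higher genes and from -3.01 to -0.58 among the lower ones. Regardless of the label, every Tph1-high tumor lay above every Tph1-low tumor for 25 tested genes (0.191%), and below for 11 (0.084%). Such complete separation held for 14 of the 110 and 5 of the 49. A gene found in Tph1-high tumors alone could not enter this test, since there are 7 of them. With genes of at least 1 FPKM in 3 tumors also admitted, 97 were higher and 35 lower, each of them also among the 110 or the 49.

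These counts depended on single tumors. Without sgControl RPP tumor 6, sgKdm5a RPP tumor 2 or sgKdm5a RPP tumor 7, 1 gene passed as higher each time and 0 as lower. Without sgControl RPP tumor 3 the numbers came to 4 and 0. Without sgControl RPP tumor 7 or 8 there were 38 and 11 or 33 and 29, and without sgKdm5a RPP tumor 1, 4, 5, 6 or 8 there were 12 to 50 higher and 2 to 13 lower. Without sgControl RPP tumor 4 there were 104 and 30. Without sgControl RPP tumor 5 they were 171 and 102, and without sgKdm5a RPP tumor 3 they were 276 and 210. With sgKdm5a RPP tumor 5 moved to the Tph1-high class, as its scaled value has it, 0 genes passed in either direction, with 1106 higher and 970 lower at an unadjusted p under 0.05, against 1282 and 1338 with the classes as given. In each of the 15 fits that leave out 1 tumor, all 110 and all 49 genes kept their sign. They were picked in the fit of all 15 tumors, which shares most tumors with each of these fits. The kept sign is therefore no independent support.

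**Figure D2:**
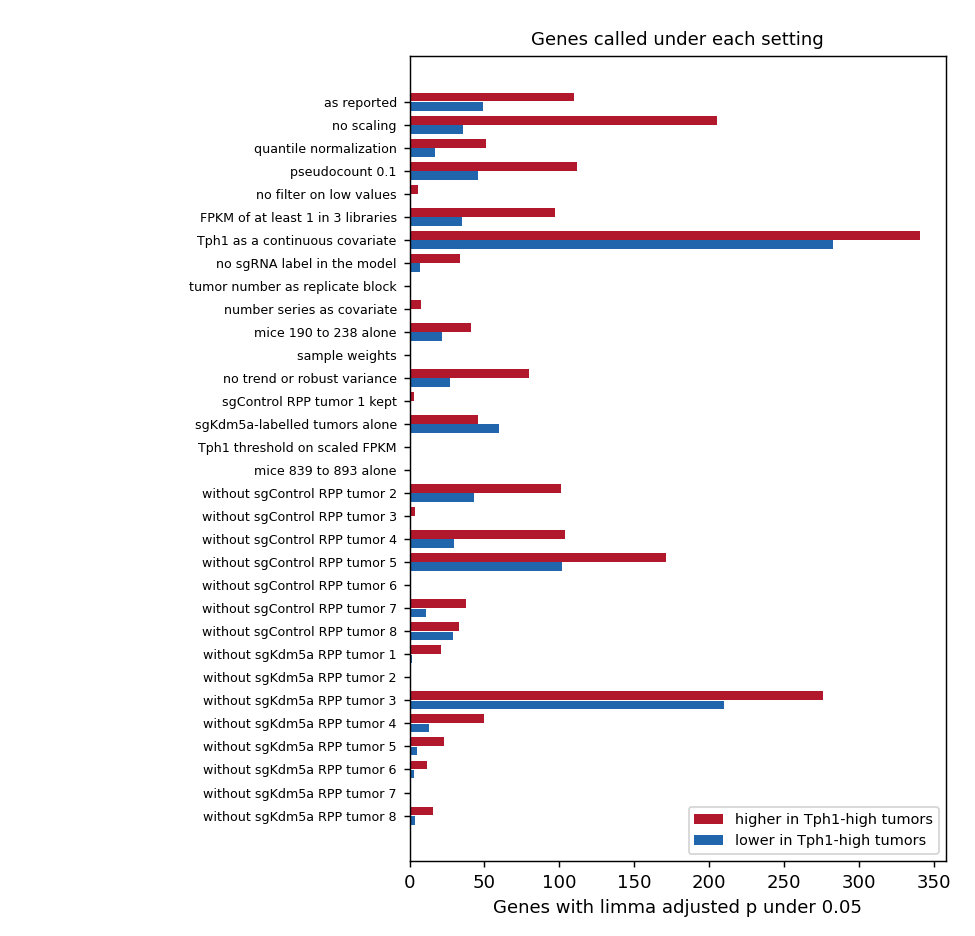
Number of genes past a limma adjusted p of 0.05 in each setting, higher (red) or lower (blue) in Tph1-high tumors. The first pair of bars gives the 110 and 49 genes reported, and the others show the counts between 0 and 341 that other processing or a left-out tumor gave.

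The largest differences among the higher genes were those of Hoxb9, Hoxb7 and Hoxb8, homeobox genes that lie side by side on chromosome 11 and set position along the body axis in the embryo. Hoxb9 was 12.5, 39.7 and 90.9 scaled FPKM in the lowest, median and highest Tph1-high tumor, and 0, 0.639 and 3.89 in the lowest, median and highest Tph1-low tumor. The classes did not overlap. The log2 difference was 4.81 (standard error 0.51, adjusted p = 0.000928, limma). It ranged from 4.603 to 5.08 when any 1 tumor was left out, and Hoxb9 passed in all 15 of these fits and in 26 of the 28 alternatives in which it could be tested. It failed with sgKdm5a RPP tumor 5 moved to the other class and with the tumor number as a block (adjusted p up to 0.314). In sgKdm5a RPP tumor 5, the tumor next to the Tph1 threshold, it was 0.369, below every Tph1-high tumor.

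Hoxb7 was 13.7, 58.8 and 85.4 scaled FPKM in the lowest, median and highest Tph1-high tumor and 0, 2.59 and 34.8 in the same order in Tph1-low tumors. Its log2 difference was 4.42 (standard error 0.82, adjusted p = 0.0397, limma). Hoxb8 was 12.5, 36.9 and 108 against 0, 1.93 and 27.5 scaled FPKM, with a log2 difference of 3.94 (standard error 0.81, adjusted p = 0.0419, limma). Hoxb7 passed in 15 and Hoxb8 in 9 of 29 alternatives. For both, sgControl RPP tumor 5 stood apart from the other Tph1-low tumors, at 34.8 for Hoxb7 and 27.5 for Hoxb8, so the classes overlapped. Other genes of the same cluster were chosen after their values were seen. Hoxb6 had medians of 82.1 and 5.54 scaled FPKM and Hoxb5 of 56.0 and 11.4, and neither passed (adjusted p = 0.0674 and 0.103, limma).

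Klk1 encodes tissue kallikrein, a serine protease of glands that frees kinins from kininogen. It was 27.5, 60.0 and 182 scaled FPKM in the lowest, median and highest Tph1-high tumor and 2.52, 12.6 and 32.1 in the Tph1-low tumors. Only sgKdm5a RPP tumor 4, at 27.5, lay below the highest Tph1-low tumor, sgControl RPP tumor 3. The log2 difference was 3.28 (standard error 0.49, adjusted p = 0.0317, limma), and Klk1 passed in 12 of the 15 fits that leave out a tumor and in 23 of 31 alternatives. Mouse kallikreins have near-identical copies, so reads may be split between them and the value is uncertain. The copy Klk1b5, named after its values were seen, was higher too, with medians of 6.16 and 1.12 scaled FPKM and a log2 difference of 2.18 (adjusted p = 0.0323, limma).

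Cldn4, the gene of the tight junction protein claudin 4, had no overlap between classes. It was 26.2, 53.1 and 235 scaled FPKM in the lowest, median and highest Tph1-high tumor, and 2.38, 12.7 and 21.6 in the Tph1-low tumors. Its log2 difference was 3.04 (standard error 0.59, adjusted p = 0.0397, limma). Iapp encodes amylin, a peptide hormone that beta cells of the pancreas release with insulin. It was 6.86, 50.5 and 193 against 1.04, 2.79 and 8.13 scaled FPKM, and 6 of 7 Tph1-high tumors lay above all Tph1-low tumors. The log2 difference was 3.86 (standard error 0.79, adjusted p = 0.0419, limma), and the remaining tumor, sgKdm5a RPP tumor 7, held 6.86 although its Tph1 was the second highest. Cldn4 passed in 16 and Iapp in 11 of 31 alternatives.

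Promoter windows of the leading higher genes are shown because these genes passed together. They are RefSeq windows of assembly GRCm38.p6, of the same extent as those above, at chr11:96281655-96281954 on the plus strand for Hoxb8, chr7:44225110-44225409 on the plus strand for Klk1 and chr5:134946885-134947184 on the minus strand for Cldn4. Capitals mark the E-box CAGCTG, which 16.3% of all windows hold, and 15.9% of the windows of the 88 higher genes that the table covers. Among the windows shown here, that of Cldn4 holds it, and those of Hoxb8 and Klk1 hold none of the 5 motifs.

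Hoxb8: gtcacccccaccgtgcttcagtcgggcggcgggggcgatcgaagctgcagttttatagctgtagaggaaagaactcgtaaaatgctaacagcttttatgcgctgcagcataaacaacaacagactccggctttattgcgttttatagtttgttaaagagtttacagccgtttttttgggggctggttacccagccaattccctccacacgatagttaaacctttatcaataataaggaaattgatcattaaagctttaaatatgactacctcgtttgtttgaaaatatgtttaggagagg
Klk1: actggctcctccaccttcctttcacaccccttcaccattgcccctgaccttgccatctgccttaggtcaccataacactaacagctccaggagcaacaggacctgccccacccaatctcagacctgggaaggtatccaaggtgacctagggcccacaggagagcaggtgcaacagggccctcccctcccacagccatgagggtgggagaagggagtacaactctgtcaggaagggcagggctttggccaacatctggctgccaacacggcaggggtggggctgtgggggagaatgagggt
Cldn4: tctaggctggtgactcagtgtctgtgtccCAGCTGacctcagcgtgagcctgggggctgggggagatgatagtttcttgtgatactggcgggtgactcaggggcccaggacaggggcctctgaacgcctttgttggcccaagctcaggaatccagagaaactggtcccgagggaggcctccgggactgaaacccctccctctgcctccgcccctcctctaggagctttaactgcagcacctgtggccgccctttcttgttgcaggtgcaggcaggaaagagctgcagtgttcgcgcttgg

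The other 4 of the 10 largest differences belonged to genes of varied kind. Pkd2l1, a cation channel gene known from cells that sense acid, had a median of 7.04 scaled FPKM in Tph1-high and 0.236 in Tph1-low tumors (log2 difference 2.96, adjusted p = 0.0435, limma). Pde11a, which encodes an enzyme that breaks down cyclic AMP and cyclic GMP, had medians of 10.1 and 0.870 (log2 difference 2.55, adjusted p = 0.0426). Hsd11b1, whose enzyme regenerates active glucocorticoid, had medians of 86.3 and 14.8 (log2 difference 2.54, adjusted p = 0.0493). Serpinb12, a serine protease inhibitor gene, had medians of 6.43 and 1.06 (log2 difference 2.52, adjusted p = 0.0426). Most alternatives lost these calls, with Pkd2l1 and Pde11a passing in 9 of 28, Serpinb12 in 8 of 28 and Hsd11b1 in 5 of 31. Their classes overlapped, and 3 Tph1-high tumors for Pkd2l1 and 5 for each of the other three exceeded all Tph1-low tumors. Pkd2l1 was 8.01 in sgControl RPP tumor 2, the Tph1-low tumor with the second highest Tph1.

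**Figure D3:**
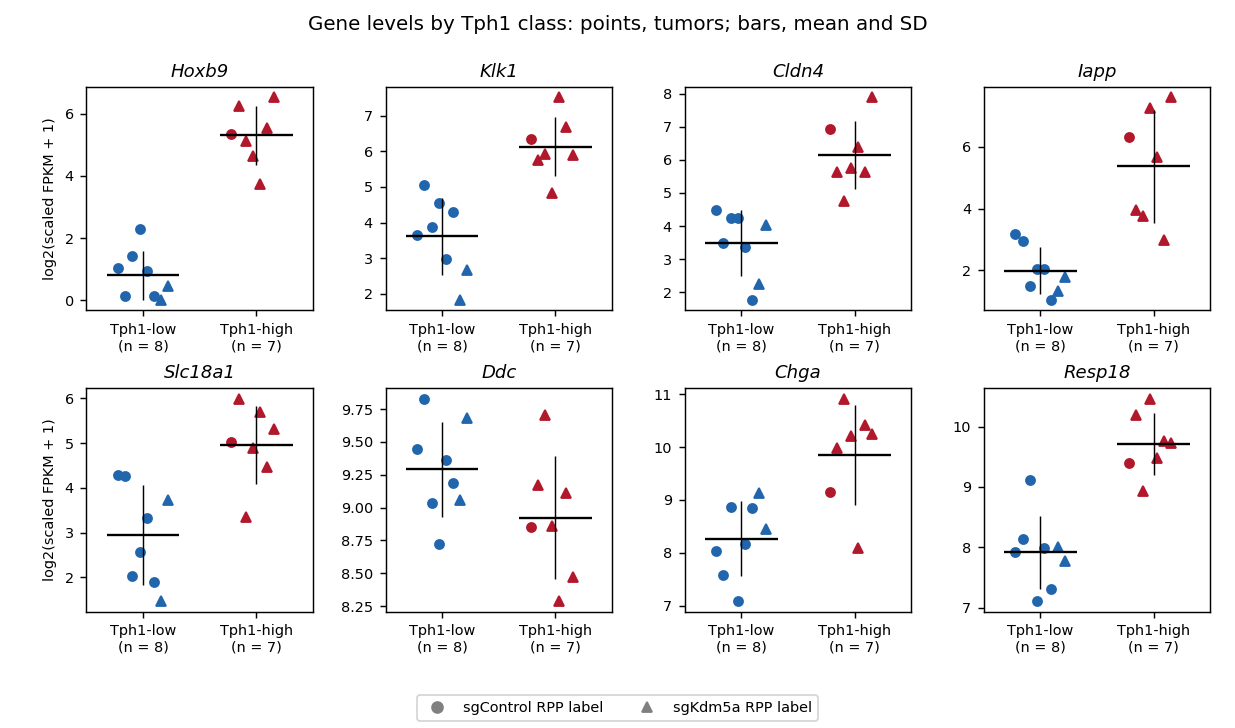
Levels of 8 genes as log2(scaled FPKM + 1) in each tumor, by Tph1 class, with bars at the mean and SD. Circles are sgControl-labelled and triangles sgKdm5a-labelled tumors. Hoxb9 and Cldn4 show no overlap between the classes, Klk1, Iapp, Slc18a1 and Resp18 a partial one, and Ddc a broad one.

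Of 18 genes for the synthesis, storage, uptake and breakdown of serotonin and other monoamines, 17 were in the table, 7 passed the filter on low values and 0 passed the test in either direction. Of all tested genes 1.21% passed, so 0 of 7 does not set this list apart. The median log2 difference of the 7 was -0.43, against -0.03 for all genes, with 3 of them above that value. Ddc, the decarboxylase gene of the second step, was abundant in every tumor, with 311, 465 and 833 scaled FPKM in the lowest, median and highest Tph1-high tumor and 422, 620 and 909 in the Tph1-low tumors. The log2 difference was -0.43 (95% interval -1.001 to 0.15, adjusted p = 0.388, limma).

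Among the transporters, Slc18a1 was 9.11, 31.5 and 62.8 scaled FPKM in the lowest, median and highest Tph1-high tumor and 1.75, 6.998 and 18.6 in the Tph1-low tumors. The lowest Tph1-high value belonged to sgKdm5a RPP tumor 3, whose Tph1 was also the lowest of its class, and the other 6 exceeded all Tph1-low tumors. The log2 difference was 2.21 (standard error 0.60) with an adjusted p of 0.0769 (limma), and it passed in 2 of 31 alternatives. Slc18a2, the vesicular transporter of monoamine neurons, lay between 0 and 0.144 scaled FPKM in all 15 tumors. Slc6a4, the serotonin uptake transporter gene, was below the filter, with medians of 0.153 in Tph1-high and 1.69 in Tph1-low tumors. It stood at 9.60 in sgKdm5a RPP tumor 3 and at 41.6 in sgControl RPP tumor 4, so the tumors with most of this RNA were not those with most Tph1. Tph2, the hydroxylase gene of brain, was at 0.642 scaled FPKM or less in every tumor.

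Maoa, the gene of the monoamine oxidase that breaks serotonin down, had medians of 4.43 and 7.37 scaled FPKM and a log2 difference of -0.56 (95% interval -1.06 to -0.06, adjusted p = 0.204, limma). In the tetrahydrobiopterin list 8 of 8 genes were tested and 0 passed, with a median log2 difference of 0.48 and 6 genes above the median of all genes. Pcbd1, which recycles the cofactor, had a log2 difference of 0.63 and Spr, the last enzyme of its synthesis, one of 0.63 (adjusted p = 0.146 and 0.228, limma). Gch1, the rate-limiting enzyme gene of cofactor synthesis, differed by -0.08 (adjusted p = 0.944), and the sign turned without scaling. For tryptophan supply and its other fate, the kynurenine route, 5 of 13 genes were tested and 0 passed. Slc7a5, an importer of large neutral amino acids such as tryptophan, had medians of 10.7 and 39.1 scaled FPKM (log2 difference -1.14, adjusted p = 0.182). Afmid, an enzyme gene of the kynurenine route, had medians of 5.16 and 4.03 (log2 difference 0.53, adjusted p = 0.205).

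Transcription factors of serotonin neurons and enterochromaffin cells showed no call either, with 0 of 10 tested genes past the threshold and a median log2 difference of 0.07. At an unadjusted p under 0.05 (limma), 1 of them was higher and 3 were lower. The smallest p of this list was that of St18, a zinc finger factor gene. It had medians of 31.0 scaled FPKM in Tph1-high and 43.0 in Tph1-low tumors (log2 difference -0.78, adjusted p = 0.0769, limma). Fev, a factor that switches on serotonin genes in neurons, was 1.83, 9.76 and 23.8 scaled FPKM in the lowest, median and highest Tph1-high tumor and 0.723, 8.44 and 29.8 in the Tph1-low tumors. Its lowest Tph1-high value was in sgKdm5a RPP tumor 8, the tumor with the most Tph1, and the highest value of all was in sgControl RPP tumor 7, the one with the least. Lmx1b, a partner of Fev in those neurons, had medians of 9.30 and 8.75 (log2 difference 0.11, adjusted p = 0.845, limma). Lmx1a and Nkx2-2, factors known from enterochromaffin cells, were under the filter, with medians of 0.207 and 0.180 in Tph1-high and 0.267 and 0.0246 in Tph1-low tumors. Nkx2-2 reached 10.7 in sgKdm5a RPP tumor 2, which held 1.75 FPKM of Tph1.

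Transcription factor genes of neuroendocrine small cell lung cancer did not pass the test. Insm1, a zinc finger factor gene of endocrine cells, had medians of 115 and 119 scaled FPKM (log2 difference -0.14, adjusted p = 0.797, limma), and its sign turned with Tph1 as a continuous value and with no label in the model. Neurod1, which marks a subtype of this cancer, lay below the filter, with medians of 0.941 and 0.795 and its highest value, 26.0, in sgKdm5a RPP tumor 2. Nkx2-1, the lung lineage factor, had medians of 66.9 and 112 (log2 difference -1.08, adjusted p = 0.141). Mycl, often amplified in this cancer, had medians of 34.4 and 103 (log2 difference -1.65, adjusted p = 0.243). Myc had medians of 5.86 and 4.21 with 27.1 in sgKdm5a RPP tumor 8 (log2 difference 0.59, adjusted p = 0.449). Of 13 tested genes of the neuroendocrine factor list 0 passed.

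Genes of the secretory granule leaned to the Tph1-high tumors. Of 17 granin and prohormone processing genes 16 were tested, 1 was higher and 0 lower, where 0.84% and 0.374% of all tested genes were, and all 16 had differences above the all-gene median. The list's median log2 difference was 0.90, against -0.03 for all genes. The gene that passed was Resp18, which encodes an endocrine granule protein. It was 485, 852 and 1411 scaled FPKM in the lowest, median and highest Tph1-high tumor and 137, 247 and 551 in the Tph1-low tumors, where only sgControl RPP tumor 4 exceeded the lowest Tph1-high tumor. The log2 difference was 1.73 (standard error 0.35, adjusted p = 0.0397, limma), and Resp18 passed in 13 of 31 alternatives. Chga, the chromogranin A gene, had medians of 1181 and 318 (log2 difference 1.13, adjusted p = 0.194), and 6 of 7 Tph1-high tumors exceeded all Tph1-low tumors, with sgKdm5a RPP tumor 6 at 271. Scg5, a chaperone gene of prohormone processing, showed no overlap, with 127 as its lowest Tph1-high and 118 as its highest Tph1-low value (log2 difference 1.17, adjusted p = 0.0562). Chgb had medians of 244 and 85.1 and Pcsk2, a prohormone cleaving enzyme, of 63.9 and 16.95 (adjusted p = 0.0879 and 0.184). Scg5, Chgb and Pcsk2 were named after their values were seen.

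The peptide hormone list gave a mixed picture. Of 37 genes 12 were tested, and 1 of them, Iapp, was higher and 0 were lower, where 0.84% and 0.374% of all tested genes were. The list's median log2 difference was 0.49. Calca, which encodes calcitonin and a related peptide of neuroendocrine cells, was 1147, 1653 and 8389 scaled FPKM in the lowest, median and highest Tph1-high tumor and 289, 1838 and 10801 in the Tph1-low tumors. Its log2 difference was 0.07 (95% interval -1.63 to 1.77, adjusted p = 0.972, limma). In the exocytosis list 29 of 30 genes were tested and 0 passed, with a median log2 difference of 0.27. Of the 29, 20 lay above the median of all genes and 9 below. At an unadjusted p under 0.05 (limma), 6 were higher and 3 lower. Stx1a, a syntaxin gene of the membrane fusion machinery, had medians of 10.97 and 1.58 (log2 difference 1.80, adjusted p = 0.0980), and Syt1, a calcium sensor gene of vesicle release, of 97.6 and 47.8 (log2 difference 0.88, adjusted p = 0.0974). In the list of voltage-gated and chemosensory channels 0 of 19 tested genes passed and all 19 lay above the median of all genes, at a median log2 difference of 0.29. Its genes of smallest p were Kcnh6 (log2 difference 0.76, adjusted p = 0.113) and Cacna1h (0.72, adjusted p = 0.177).

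Interferon-stimulated and class I antigen presentation genes lay above the median of all genes in 21 of 22 tested members. Their median log2 difference was 1.06, and 2 passed, both higher, where 0.84% of all tested genes were higher and 0.374% lower. H2-K1, a class I heavy chain gene, was 457, 653 and 942 scaled FPKM in the lowest, median and highest Tph1-high tumor and 181, 265 and 703 in the Tph1-low tumors (log2 difference 1.53, standard error 0.36, adjusted p = 0.0493, limma). Class I genes have close copies, so its reads may be split. Psmb9, an immunoproteasome subunit gene, had medians of 76.0 and 45.2 (log2 difference 1.65, standard error 0.37, adjusted p = 0.0443). The classes overlapped for both, with 3 and 2 Tph1-high tumors above all Tph1-low ones, and they passed in 6 and 9 of 31 alternatives. Without the label in the model the list median was 0.65 instead of 1.06.

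Mitosis genes lay on the other side. Of 20 tested genes 0 passed and 18 lay below the median of all genes, with a median log2 difference of -0.32. Cdc20, an activator of the anaphase-promoting complex, had medians of 56.8 and 144 scaled FPKM (log2 difference -1.43, standard error 0.36, adjusted p = 0.0645, limma), and Kif20a, a kinesin gene of cell division, of 27.9 and 50.5 (log2 difference -0.71, adjusted p = 0.132). DNA replication genes differed less, with 0 of 20 tested genes past the threshold and a median log2 difference of -0.16. In the list of cyclic AMP response genes 0 of 12 passed. Crem, a cyclic AMP response factor gene, had a log2 difference of 0.997 (adjusted p = 0.0884), and Gnas, the gene of the G protein subunit that turns on cyclic AMP synthesis, one of 0.76 (adjusted p = 0.171). That list's median, 0.37, turned to -0.22 without sgKdm5a RPP tumor 5 and to -0.18 in mice 190 to 238 alone.

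**Figure D4:**
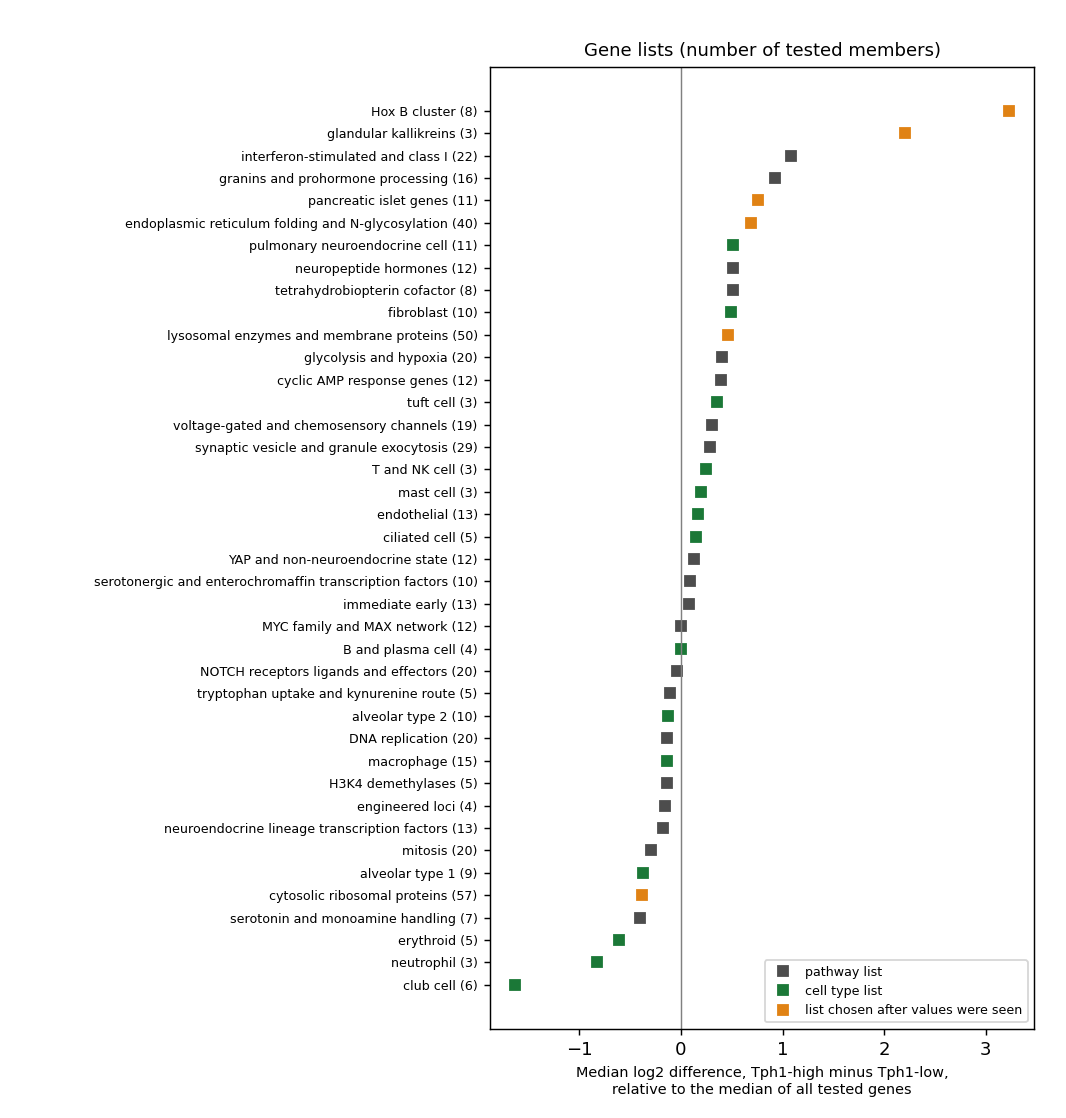
Median log2 difference of each gene list between Tph1-high and Tph1-low tumors, with the all-gene median (13103 genes) set to 0 and the number of tested members in brackets. Grey squares are pathway lists, green squares cell type lists and orange squares lists chosen after values were seen, which describe and do not test. Hox B genes stand farthest to the right and club cell genes farthest to the left.

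The genes that fell in Tph1-high tumors were led by Nt5e and Gdpd3. Nt5e encodes CD73, the surface enzyme that makes adenosine from AMP. It was 2.43, 9.57 and 106 scaled FPKM in the lowest, median and highest Tph1-high tumor and 16.6, 46.1 and 199 in the Tph1-low tumors. In all, 5 of the Tph1-high tumors lay below all Tph1-low tumors, while sgKdm5a RPP tumor 3 held 106, and the log2 difference was -3.01 (standard error 0.69, adjusted p = 0.0493, limma). Gdpd3, which encodes a phosphodiesterase of lysophospholipids, was 1.05, 1.53 and 12.9 against 3.71, 8.36 and 54.1, with a log2 difference of -2.78 (standard error 0.54, adjusted p = 0.0397). Its high Tph1-high value, 12.9, was in sgKdm5a RPP tumor 8. Nt5e passed in 5 and Gdpd3 in 14 of 31 alternatives.

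Regulators of RNA and chromatin were among the other lower genes. Msi1, an RNA-binding protein gene of stem cells, had medians of 5.43 and 16.3 scaled FPKM (log2 difference -1.79, adjusted p = 0.0426, limma). Runx3, a transcription factor gene, had medians of 2.497 and 7.27 (log2 difference -1.64, adjusted p = 0.0447). Lmnb1, the gene of the nuclear lamina protein lamin B1, was 19.4, 35.8 and 70.7 in the lowest, median and highest Tph1-high tumor and 45.6, 117 and 153 in the Tph1-low tumors (log2 difference -1.51, standard error 0.35, adjusted p = 0.0493). Pan2, a subunit gene of a deadenylase that shortens poly(A) tails, had medians of 8.27 and 15.8 (log2 difference -1.36, adjusted p = 0.0397). Hmgn2, a nucleosome-binding protein gene with many processed copies in the genome, had medians of 297 and 757 (log2 difference -1.35, adjusted p = 0.0493), and its value is uncertain for that reason. Per3, a circadian clock gene, had medians of 4.81 and 9.43 (log2 difference -1.35, adjusted p = 0.0426). Arhgap23 and the transcript 9230110C19Rik had log2 differences of -1.36 and -1.41 (adjusted p = 0.0493 and 0.0397). For none of these 10 genes were the classes fully apart. Runx3 passed in 5 of 29 alternatives, and of 31 alternatives Lmnb1 passed in 5, Hmgn2 and Arhgap23 in 6, Msi1 in 8, Per3 in 11, Pan2 in 12 and 9230110C19Rik in 13.

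The called genes were unevenly spread over the chromosomes, a pattern noticed after the values were seen. Chromosome 18 held 10 of the 49 lower genes (20.4%) and 2.51% of the tested genes with a known chromosome, and chromosome 9 held 22 of the 110 higher genes (20%) and 5.78% of those tested. The genes on chromosome 18 were Lmnb1, Pias2, Kdm3b, Smad4, Seh1l, Snx2, Rbm27, Csnk1g3, Srp19 and Ercc3. Smad4, the shared transducer of TGF-beta and BMP signals, was 15.1, 17.1 and 25.9 scaled FPKM in the lowest, median and highest Tph1-high tumor and 27.5, 34.7 and 42.5 in the Tph1-low tumors. These did not overlap (log2 difference -0.99, standard error 0.17, adjusted p = 0.0323, limma). Seh1l, a nuclear pore subunit gene, had medians of 28.3 and 48.0 (log2 difference -0.96, adjusted p = 0.0323).

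The levels of whole chromosomes differed between these libraries. The median over all 328 tested genes of chromosome 18, taken in each tumor as the deviation from the gene's median over the 15 tumors, was -0.55 to 0.02 on the log2 scale in Tph1-high tumors and 0.04 to 0.26 in Tph1-low tumors. It was lowest in sgKdm5a RPP tumors 8 and 1, at -0.55 and -0.41. With the label in the model, the median log2 difference between classes was -0.38 for chromosome 18, -0.43 for 12 and -0.37 for 4. It was 0.31 for chromosome 14, 0.22 for 6 and 0.21 for 9. The levels of single tumors do not include the label. For chromosome 14 their median was 0.006 in Tph1-high tumors, with a range of -0.35 to 0.27. In Tph1-low tumors it was 0.055, with a range of -0.47 to 0.35, so without the label the direction was not the same. Single tumors stood apart on some chromosomes. Values were 0.59 on chromosome 4 and -0.34 on chromosome 9 in sgKdm5a RPP tumor 2. They were -0.61 on chromosome 6 in sgKdm5a RPP tumor 5 and 0.83 on the X chromosome in sgControl RPP tumor 4. The part of these chromosome levels in the called genes was not tested.

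**Figure D5:**
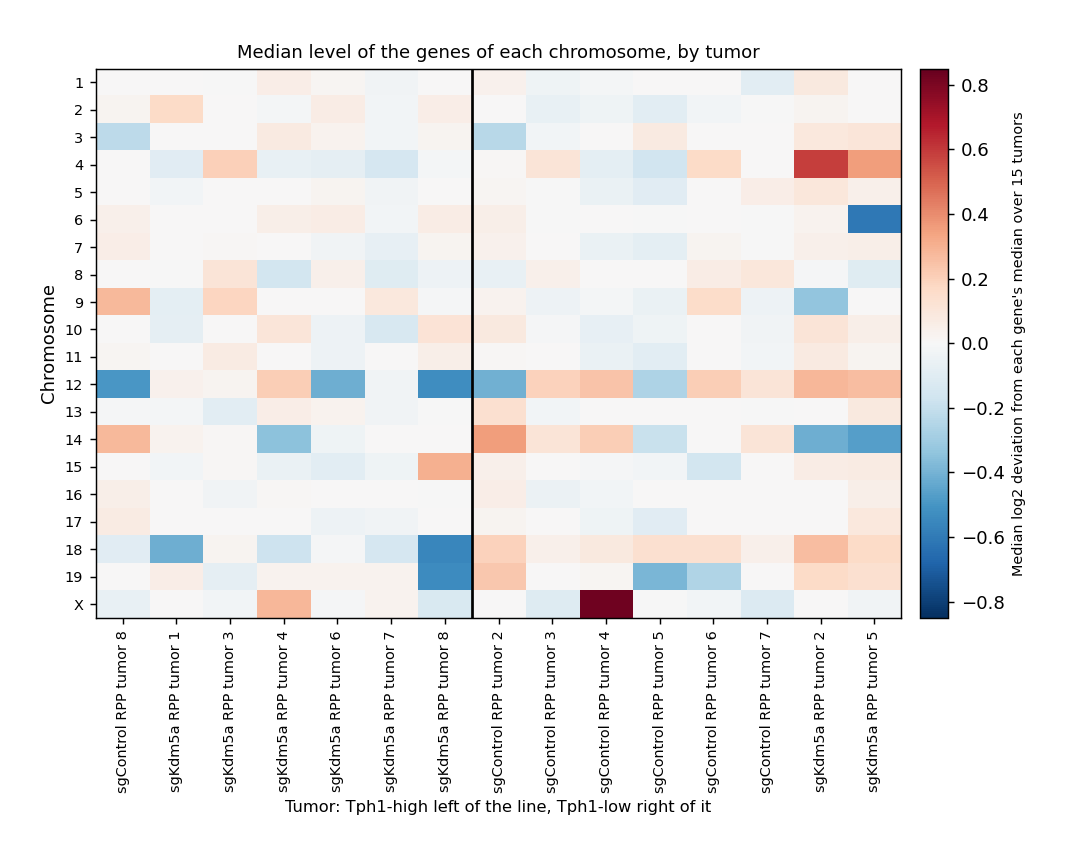
Median log2 deviation of the tested genes of each chromosome in each tumor, from each gene's own median over 15 tumors, with Tph1-high tumors left of the line and Tph1-low tumors right of it. Blue is lower and red higher, and chromosome 18 runs from -0.55 to 0.02 on the left and from 0.04 to 0.26 on the right.

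Tph1 itself lies on chromosome 7, whose median log2 difference was -0.03. Its nearest neighbours were named by position. Of these, Sergef had medians of 10.5 and 8.11 scaled FPKM and a log2 difference of 0.44 (95% interval -0.06 to 0.94, adjusted p = 0.303, limma). Kcnc1, Saal1 and Saa3 had log2 differences of 0.42, 0.12 and -1.89 (adjusted p = 0.471, 0.731 and 0.385, limma). Saa4 and Myod1 were under the filter.

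Other cell types that a lung tumor can hold were read from marker lists. In bulk RNA, fewer cells of a type and less RNA per cell cannot be told apart. Mast cells also make Tph1, and their list held genes near 0 as well as expressed ones. Cpa3, a mast cell protease gene, reached 0.192 scaled FPKM in Tph1-high and 1.56 in Tph1-low tumors, and Ms4a2, a subunit of their IgE receptor, was listed at 0 in all 7 Tph1-high tumors. Kit, a receptor gene of mast cells and other cells, was 14.6 to 31.4 in Tph1-high and 14.4 to 25.9 in Tph1-low tumors. Hdc, the gene of the histamine-making enzyme, was 0.218 to 6.57 and 0.413 to 30.9. Of the 12 mast cell genes 4 stayed under 1 FPKM as deposited in all 15 tumors, 3 were tested and 0 passed. Their summed levels were 21.97 to 40.1 scaled FPKM in Tph1-high and 21.1 to 55.0 in Tph1-low tumors. The part of mast cells in the Tph1 level was not tested. The pulmonary neuroendocrine list was tested in all 11 genes, of which 1, Resp18, was higher, where 0.84% of all tested genes were. Its summed levels were 4527 to 13433 in Tph1-high and 2609 to 14332 in Tph1-low tumors.

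No gene of the 13 other cell type lists passed, and their summed levels overlapped between the classes in every list. Club cell genes lay lowest, with all 6 tested members below the median of all genes at a median log2 difference of -1.66, in the model with the label. Their sums, without it, ran the other way in the middle: the lowest, median and highest were 23.1, 3466 and 27967 in Tph1-high and 400, 1094 and 57916 in Tph1-low tumors. Hp, the haptoglobin gene of this list, likewise had medians of 63.1 and 43.2 scaled FPKM beside a log2 difference of -1.92 (adjusted p = 0.368, limma). Alveolar type 2 sums were 54.2 to 2960 and 52.6 to 5846, macrophage sums 432 to 1732 and 461 to 2495, and endothelial sums 103 to 281 and 103 to 302. Fibroblast genes lay above the median of all genes in 8 of 10 tested members, at a median log2 difference of 0.47 with sums of 62.9 to 1556 and 63.3 to 581, and that median was -0.43 with sgKdm5a RPP tumor 5 moved to the other class. Whether such tissue content takes part in the called genes was not tested.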

How the data were processed

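RNA of 15 tumors was analysed, 1 library per mouse number, from a stranded total RNA protocol with 500 ng of input, per the labels' protocols. The deposited table holds 1 value per gene and tumor. The values were read as FPKM made by the authors, a unit inferred from the values, since they are not whole numbers. STAR 2.5.1b, Cufflinks 2.2.1 and the build mm9 appear in the submitters' processing notes, which give no role for each. The annotation is not given in the sources used here. Read depth is unknown, so no counting interval is given and precision rests on the spread between tumors.

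Of 24043 entries, 27 whose names had become dates were left out, and columns of other samples numbered 0. The genes tested (13103, without Tph1) reached 1 FPKM in 8 or more of the 15 tumors. Each library was divided by its median over these genes and multiplied by the median of the 15 medians. Values were compared as log2(scaled FPKM + 1), a scale that understates changes of low genes, with limma 3.58.1 in R 4.3.3 (trend and robust variance, label as covariate, 12 residual degrees of freedom) and Benjamini-Hochberg adjustment at 0.05. Intervals are 95% intervals of that model. SD is between tumors. The planned Fisher's exact test of class by label is not given, because the classes come from Tph1. The fit was tested on simulated data. P-values set each difference against the spread between these tumors. With the label in the model, that difference rests on 1 Tph1-high and 6 Tph1-low sgControl-labelled tumors, and on 6 and 2 sgKdm5a-labelled ones.

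Named genes are the 10 of largest difference in each direction past the threshold, up to 4 that passed per list or the 2 of smallest p, and a fixed set of serotonin and neuroendocrine genes. Not all are printed, and others named were chosen after their values were seen. The classes, gene lists and tests were chosen with earlier results of these data known. Lists are described by counts and medians, with no test. Gene positions by chromosome (99.6% of tested genes) and promoter windows are RefSeq's for GRCm38.p6, another build than that of the files, so no coordinates of measured genes were used. Alternatives were other scalings, filters, pseudocount, covariates, sample weights, subsets of mice and leaving out each tumor.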

Additional observations from a re-analysis of the deposited data

Results flagged for a closer look

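Within a class, 13 single values stood far from the rest, by the gap to the nearest other tumor over the whole range of the class. Some 152 sets of values were examined, and chance flags about 1 in 20 of them, which would be about 7.6. All values are scaled FPKM, and none of these tumors was left out for it.

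Among Tph1-low tumors, sgKdm5a RPP tumor 2 stood apart most often. It was the highest for Arhgap23 at 30.9, for Kdm5a at 20.4 and for the enterochromaffin factor gene Nkx2-2 at 10.7, and the lowest for the lysosomal enzyme gene Naglu at 4.76. In sgControl RPP tumor 2 the channel gene Pkd2l1 was high at 8.01 and Myc low at 1.21. Hoxb8 was 27.5 in sgControl RPP tumor 5, and the serotonin transporter gene Slc6a4 was 41.6 in sgControl RPP tumor 4.

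Among Tph1-high tumors, sgKdm5a RPP tumor 3, which has the least Tph1 of its class, stood apart for 4 genes. It was lowest for the calcium-sensing receptor gene Casr at 6.70, and highest for Cdc20 at 137, Slc6a4 at 9.60 and Lmx1a at 1.81. Myc was 27.1 in sgKdm5a RPP tumor 8, the tumor with the most Tph1.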

How the results depend on the processing

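With no scaling, 205 genes were higher and 36 lower (median difference of all genes 0.08), with quantile normalization 51 and 17, with no filter on low values 6 and 0, with Tph1 as a continuous value 341 and 283, with no label in the model 34 and 7, with the mouse number series as covariate 8 and 0, in mice 190 to 238 alone 41 and 22, with sample weights 1 and 0, without trend or robust variance 80 and 27, and with sgControl RPP tumor 1 kept 3 and 0. A pseudocount of 0.1 gave 112 and 46. Chosen after seeing the data were the sgKdm5a-labelled tumors alone (46 and 60, of which 15 and 8 were among the 110 and 49), mice 839 to 893 alone (0 and 0, with 269 and 155 at an unadjusted p under 0.05) and the Tph1 threshold on scaled FPKM (0 and 0). Leaving out each tumor gave 1 to 276 higher and 0 to 210 lower. The cause was not tested for any of these. The called genes that could be tested kept their sign in every alternative, except 1 of 48 lower genes in mice 839 to 893 alone. They were picked from these same tumors, so a kept sign is no independent support. With the tumor number as a replicate block 0 and 0 genes passed, with 782 and 786 at an unadjusted p under 0.05. Deviations of tumors of the same number had correlations of -0.27 to 0.17. Among the 8 sgKdm5a-labelled tumors, the one of the own number was the best partner in 3 of 7. These values do not settle whether the numbers are pairs, and they were not taken as such. The share of Tph1-high tumors differed by 62.5 points with sgControl RPP tumor 1 kept and by 73.2 points on scaled FPKM, and by 57.1 to 75.0 points without 1 tumor.

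For the named genes, 1400 values under the alternatives kept direction and side of the threshold, 720 kept direction and lost the call, 24 gained one and 28 turned, all of these 28 for genes that did not pass. Of the list medians 1184 moved by less than the spread between tumors and 40 by more. In mice 190 to 238 alone the log2 difference was -0.47 for Calca and -0.75 for Fev. In mice 839 to 893 alone it was 0.0427 for Ddc, 0.39 for Gch1 and 0.63 for Kdm5a. With Tph1 as a continuous value it was -0.0430 for Calca, -0.0710 for Fev, 0.0207 for Insm1 and -0.00200 for Lmx1b, per log2 unit of Tph1. With the replicate block it was -0.14 for Fev, -0.48 for Lmx1b and -1.04 for Myc. With the scaled threshold it was -0.15 for Calca, -0.47 for Fev and 0.17 for Gch1. With sample weights Calca was at -0.0376, without scaling Gch1 at 0.0401, and without the label Insm1 at 0.00557 and Kdm5a at 0.34. Leaving out 1 tumor gave -0.12 to 0.28 for Calca, -0.27 to 1.32 for Fev, -0.26 to 0.13 for Gch1 and -0.50 to 0.0772 for Kdm5a. The difference of the class effect between labels, and its alternatives, were not fitted: the plan asked for at least 2 tumors of each class under each label, and 1 sgControl-labelled tumor was Tph1-high. Read depth is unknown, so what it limits cannot be stated.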

Other observations

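The lists described here were drawn up after the values were seen and describe the called genes, with no test. Lysosomal genes were frequent among the higher genes: 9 of 50 tested were higher and 0 lower, against 0.84% and 0.374% of all tested genes, and 42 lay above the median of all genes, at a median log2 difference of 0.44. Hexa, a subunit gene of the enzyme that degrades gangliosides, was 74.8, 104 and 132 scaled FPKM in the lowest, median and highest Tph1-high tumor and 35.2, 47.7 and 66.4 in the Tph1-low tumors, with no overlap (log2 difference 1.19, standard error 0.19, adjusted p = 0.0321, limma). It passed in 21 of 31 alternatives. Gaa, the gene of the enzyme that degrades glycogen in lysosomes, had no overlap either (log2 difference 1.01, adjusted p = 0.0323). Naglu and Arsa, whose loss causes lysosomal storage disease, and the protease gene Ctsz had log2 differences of 1.11, 1.02 and 1.54 (adjusted p = 0.0397 for each).

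Genes for protein folding and N-glycosylation in the endoplasmic reticulum were higher in 8 of 40 tested members and lower in 0. Of all tested genes 0.84% were higher and 0.374% lower. Of the 40, 37 lay above the median of all genes, at a median log2 difference of 0.66. Hsp90b1, the gene of the chaperone GRP94, was 294, 565 and 842 scaled FPKM in the lowest, median and highest Tph1-high tumor and 192, 375 and 468 in the Tph1-low tumors (log2 difference 1.14, standard error 0.20, adjusted p = 0.0323, limma). Manf, a stress-induced secreted protein gene, and Pdia4, a disulfide isomerase gene, had log2 differences of 1.21 and 1.26 (adjusted p = 0.0397 and 0.0425) with the label in the model. Without it, their medians lay closer, at 74.7 and 63.0 scaled FPKM for Manf and 65.5 and 52.0 for Pdia4. The classes overlapped, with 3 and 2 Tph1-high tumors above all Tph1-low ones. The promoter window of Hsp90b1 (RefSeq, GRCm38.p6, chr10:86705395-86705694, minus strand) is shown because it holds the endoplasmic reticulum stress element, in capitals, on each strand. Of all windows 0.119% hold this motif. Among called genes with a window, 1 of 88 higher genes, Hsp90b1 itself, and 1 of 34 lower genes (2.94%) hold it, which sets neither direction apart.

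Hsp90b1: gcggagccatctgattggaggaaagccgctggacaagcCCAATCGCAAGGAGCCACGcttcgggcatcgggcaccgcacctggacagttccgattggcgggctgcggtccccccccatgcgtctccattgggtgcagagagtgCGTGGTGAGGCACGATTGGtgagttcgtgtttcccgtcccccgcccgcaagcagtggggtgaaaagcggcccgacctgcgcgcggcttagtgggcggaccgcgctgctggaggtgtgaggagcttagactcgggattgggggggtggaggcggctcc

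Pancreatic islet genes included 5 higher genes among 11 tested and 0 lower, against 0.84% and 0.374% of all tested genes, in a list drawn up because such genes had been seen among those called. The 5 were Iapp, Casr, Kcnk16, Gpr142 and Adra2a, while the insulin genes Ins1 and Ins2 were listed at 0 in all 15 tumors. Casr, the calcium-sensing receptor gene, had medians of 23.6 and 6.24 scaled FPKM (log2 difference 2.17, adjusted p = 0.0397, limma), and 6 of 7 Tph1-high tumors exceeded all Tph1-low tumors. The potassium channel gene Kcnk16, the tryptophan-sensing receptor gene Gpr142 and the adrenergic receptor gene Adra2a had log2 differences of 1.53, 1.02 and 1.73 (adjusted p = 0.0397, 0.0426 and 0.0435). Of the Hox B cluster 8 of 10 genes were tested, 3 were higher and 0 lower, at a median log2 difference of 3.21, and of the glandular kallikreins 2 of 3 tested were higher and 0 lower.

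Cytosolic ribosomal protein genes lay below the median of all genes in 53 of 57 tested members, at a median log2 difference of -0.40. Of the 57, 1, Rps7, was lower and 0 higher, where 0.374% and 0.84% of all tested genes were. Rps7 had medians of 246 and 413 scaled FPKM (log2 difference -0.97, adjusted p = 0.0426, limma), and since ribosomal protein genes have many processed copies its value is uncertain. With quantile normalization the list median was -0.17.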
